A study of Schizosaccharomyces pombe with 32 samples.

Results

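The 7 genes described here serve agglutination (mam3), cell fusion (fus1, dni1, dni2, prm1 and cfr1) and nuclear fusion (tht1) in the fission yeast Schizosaccharomyces pombe. Their probes were found by the annotated gene name, and the genes themselves were picked for their roles with earlier results of these data known. Each had 1 probe, among 4819 genes with a probe and 4811 genes tested. By systematic name they are mam3 (SPAP11E10.02C), fus1 (SPAC20G4.02C), dni1 (SPAC31G5.07), dni2 (SPBC4.01), prm1 (SPAP7G5.03), cfr1 (SPAC6G9.12) and tht1 (SPAC13C5.03). All were measured on 32 arrays, except tht1 on 31.

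Polyadenylated RNA was hybridised to 32 arrays with 2 colours. Cy5 carried RNA of cells kept without nitrogen for 1 to 8 h, and Cy3 carried RNA of cells of the same strain growing in rich medium. Arrays without pheromone came from strain L972, and those with it from strain CRL672 given synthetic P-factor at 0.5 ug per ml. Both were moved into the same minimal medium without a nitrogen source. The strain therefore changed with the pheromone, and the 2 cannot be told apart. The genotype and mating type are not given in the sources used here. Each hour of each condition had 2 arrays, 1 from each of 2 time courses, called replicate 1 and replicate 2 here.

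When nitrogen runs out, fission yeast cells of opposite mating type secrete pheromones, stick together, dissolve the walls between them and fuse. P-factor is secreted by P cells and sensed by M cells, where a G protein and a MAP kinase cascade act on the transcription factor Ste11. Agglutinins hold the pair together, a formin gathers actin at the contact site, membrane proteins join the plasma membranes, and proteins of the nuclear envelope then join the nuclei.

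Levels are printed as log2 of starved over growing cells, centred on the array's median, so 1 unit is a doubling if the deposited values are in base 2, as was taken here. Across genes, which are no independent replicates, Pearson's r between the paired arrays of an hour was 0.84 to 0.901 (no pheromone) and 0.865 to 0.943 (P-factor). Of the genes known for M cells, mfm1, mfm3, mam1 and mam2 stood above growth in both conditions. The mean of 5 M cell genes other than mam3 lay at 4.94 to 5.77 on the arrays of 6 to 8 h in the absence of P-factor and at 6.25 to 6.74 in its presence. The other of the 5, sxa2, for the peptidase that breaks down P-factor, was not called without P-factor (0.24 ± 0.14) and was lower with it (-0.36 ± 0.14). For 4 P cell genes the mean on those arrays was 0.23 to 0.69 (no pheromone) and 1.08 to 1.48 (P-factor).

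The main result was a rise of 6 of the 7 genes between 1 to 3 h and 6 to 8 h with P-factor, of which 2 also rose without it. The gene dni2 rose 65.9-fold, mam3 40.3-fold and dni1 26.1-fold, while prm1, tht1 and fus1 rose 6.59-fold, 6.54-fold and 4.24-fold. The change of cfr1 with P-factor was not called (0.02 ± 0.12, adjusted p = 0.911) and it fell without. The comparison called 33.7% of all genes tested as higher late with P-factor, and 24% as higher and 18.3% as lower without. Among 4811 genes ranked by this change with P-factor, dni2 was number 4, mam3 number 6 and dni1 number 9. In RNA of a whole culture, fewer cells of a type and less RNA per cell cannot be told apart.

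**Figure D1:**
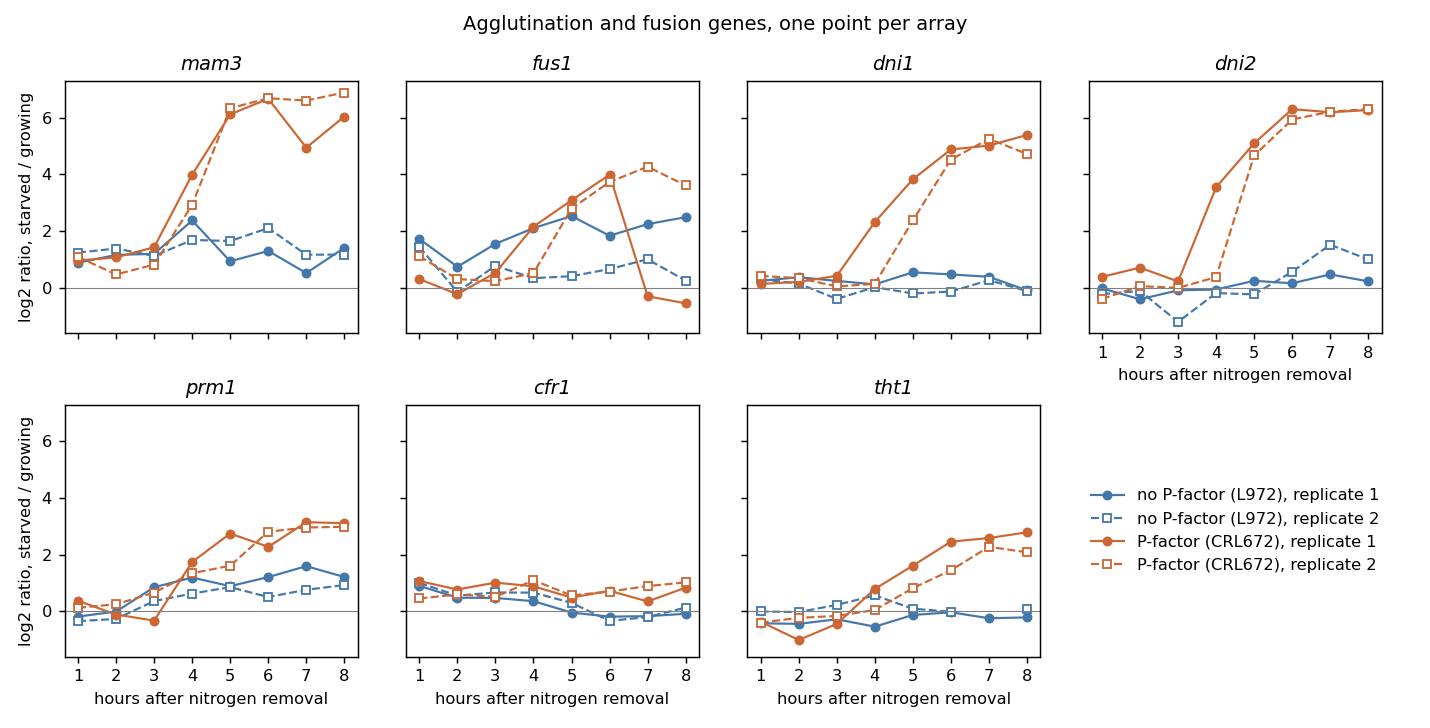
Log2 ratio, starved to growing (vertical axis), against hours after nitrogen removal for each of the 7 genes. Each point is 1 array, blue without P-factor and orange with it, filled for replicate 1 and open for replicate 2. The orange lines of mam3, dni1 and dni2 stand apart from the blue ones by 5 h and lie above 4.5 from 6 h on, and fus1 of replicate 1 with P-factor drops below 0 at 7 and 8 h.

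Agglutination was represented by mam3, the gene of the surface adhesin by which M cells stick to P cells. It stood above growth without pheromone too: averaged over 1 to 8 h it was at 1.33 ± 0.25 (adjusted p = 5.53e-05), and it was called higher than growth at 7 of 8 hours. No further change was called there (late minus early 0.11 ± 0.25, adjusted p = 0.745). On the 6 arrays of 6 to 8 h without P-factor it ran from 0.52 through a median of 1.24 to 2.11. With P-factor the 6 arrays of 1 to 3 h ran from 0.47 through 1.02 to 1.43, within or near the range of the arrays without it. The 2 arrays with P-factor read 3.99 and 2.93 at 4 h, 6.12 and 6.34 at 5 h, and 6.67 and 6.69 at 6 h. At 6 to 8 h the lowest was 4.95, the median 6.64 and the highest 6.89, so no late array with P-factor overlapped one without. The late minus early change was 5.33 ± 0.25 with P-factor (limma, adjusted p = 1.47e-13), and it was larger than without P-factor by 5.22 ± 0.35 (adjusted p = 6.5e-10). Of the P cell genes, map3, for the receptor of M-factor, and map4, for the P cell agglutinin, also had a larger change with P-factor (by 1.41 ± 0.26 and 0.80 ± 0.28). For map1 and sxa1, also of P cells, this difference was not called (0.67 ± 0.32 and 0.45 ± 0.22). The part of the P cell genes in the result was not tested.

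The formin gene fus1 makes the protein that nucleates actin at the site of fusion. It had the largest error of the 7 genes, with a standard error of 0.57 for the late minus early change where the others had 0.12 to 0.31. Without P-factor replicate 1 averaged 1.90 over the 8 hours and replicate 2 averaged 0.59. The mean was not called (1.25 ± 0.57, adjusted p = 0.0554). In some alternatives it was, as with no block for the series (adjusted p = 0.000638) or each series as 1 value (0.0135). In others it was not, as with values as deposited (0.0667). With P-factor the 2 arrays read 2.16 and 0.52 at 4 h, 3.09 and 2.80 at 5 h and 3.99 and 3.74 at 6 h, so they were close at 5 and 6 h. They then parted: replicate 1 read -0.30 at 7 h and -0.55 at 8 h, where replicate 2 read 4.27 and 3.61. The late arrays of the conditions thus overlapped, at 0.26 to 2.49 without P-factor and -0.55 to 4.27 with it. No other gene of the 7 fell back below 0 there, and mam3 of replicate 1 went from 6.67 at 6 h to 4.95 at 7 h and 6.05 at 8 h. The change with P-factor was 2.08 ± 0.57 (adjusted p = 0.00364). Taken as 7 and 8 h against 1 and 2 h, it was not called (1.38 ± 0.69, adjusted p = 0.101). The difference of the main change from that without P-factor was not called either (1.68 ± 0.80, 95% interval 0.02 to 3.34, adjusted p = 0.13). Without replicate 1 at 7 and 8 h the difference was 3.19 (adjusted p = 4e-05), and the change with P-factor lost its call without replicate 2 of that condition (0.84, adjusted p = 0.0892).

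Fusion of the plasma membranes was represented by dni1, dni2 and prm1. The genes dni1 and dni2 make related proteins with several membrane spans that act where mating cells touch. They were near the level of growth without P-factor, at 0.14 ± 0.24 and 0.10 ± 0.31 over all hours (adjusted p = 0.621 and 0.778). Late arrays of dni1 ran from -0.13 through 0.09 to 0.47 without P-factor and from 4.53 through 4.95 to 5.39 with it. Late arrays of dni2 ran from 0.16 through 0.52 to 1.52 without P-factor and from 5.94 through 6.24 to 6.31 with it. For both genes all late arrays with P-factor stood above all those without. The late minus early change of dni1 was 4.70 ± 0.23 with P-factor (adjusted p = 4.12e-13) and -0.02 ± 0.23 without (adjusted p = 0.957), a difference of 4.73 ± 0.33 (adjusted p = 1.36e-09). That of dni2 was 6.04 ± 0.31 with P-factor (adjusted p = 4.24e-13), the difference being 5.04 ± 0.43 (adjusted p = 3.04e-08). Unlike dni1, dni2 also rose without pheromone, by 1.00 ± 0.31 (adjusted p = 0.0112). That rise rested on replicate 2, which moved by 1.54 where replicate 1 moved by 0.46, and it was not called without replicate 2 (adjusted p = 0.535).

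The gene prm1, for a conserved multispan protein of plasma membrane fusion, rose in both conditions. Without P-factor its 6 late arrays ran from 0.50 through 1.07 to 1.59, and it was called higher than growth at every hour from 4 h. With P-factor they ran from 2.27 through 2.97 to 3.14, again with no overlap between the conditions. It rose by 0.97 ± 0.18 without P-factor (adjusted p = 0.000216, and 0.0659 without replicate 1 of that condition) and by 2.72 ± 0.18 with it (adjusted p = 5.36e-11). The rise with P-factor was larger by 1.75 ± 0.26 (adjusted p = 3.75e-05). The early arrays did not separate the conditions, at -0.35 to 0.85 (no pheromone) and -0.33 to 0.66 (P-factor).

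The gene cfr1 belongs to the family of budding yeast CHS5, whose product carries cargo from the Golgi to the cell surface, and cells lacking cfr1 fuse poorly. It was the exception among the 7. In both conditions it started above growth, with 0.95 ± 0.19 at 1 h without P-factor and 0.76 ± 0.19 with it. Without P-factor the 2 arrays read 0.90 and 1.00 at 1 h and -0.19 and -0.34 at 6 h, and the late minus early change was -0.82 ± 0.12 (adjusted p = 1.56e-05). With P-factor it was called higher than growth at all 8 hours. Late arrays ran from -0.34 through -0.18 to 0.13 without P-factor and from 0.35 through 0.78 to 1.02 with it, so they did not overlap although the gap was small. The difference of the changes was 0.84 ± 0.17 (adjusted p = 0.00126). This call was lost without replicate 2 of either condition (0.78 and 0.51, adjusted p = 0.0563 and 0.0609) and when each series counted as 1 value (adjusted p = 0.132).

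The gene tht1 makes a protein of the nuclear envelope and endoplasmic reticulum that is needed for the membranes of 2 nuclei to fuse after cell fusion. Without P-factor it was not called against growth at any hour, with an average of -0.08 ± 0.20 (adjusted p = 0.731), and its late arrays ran from -0.25 through -0.04 to 0.09 (5 arrays). With P-factor its early arrays ran from -1.01 through -0.38 to -0.16, and its late ones from 1.45 through 2.37 to 2.79. The rise was 2.71 ± 0.19 (adjusted p = 1.66e-10), larger than without P-factor by 2.60 ± 0.28 (adjusted p = 7.02e-07). Replicate 1 rose by 3.22 and replicate 2 by 2.20.

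**Figure D2:**
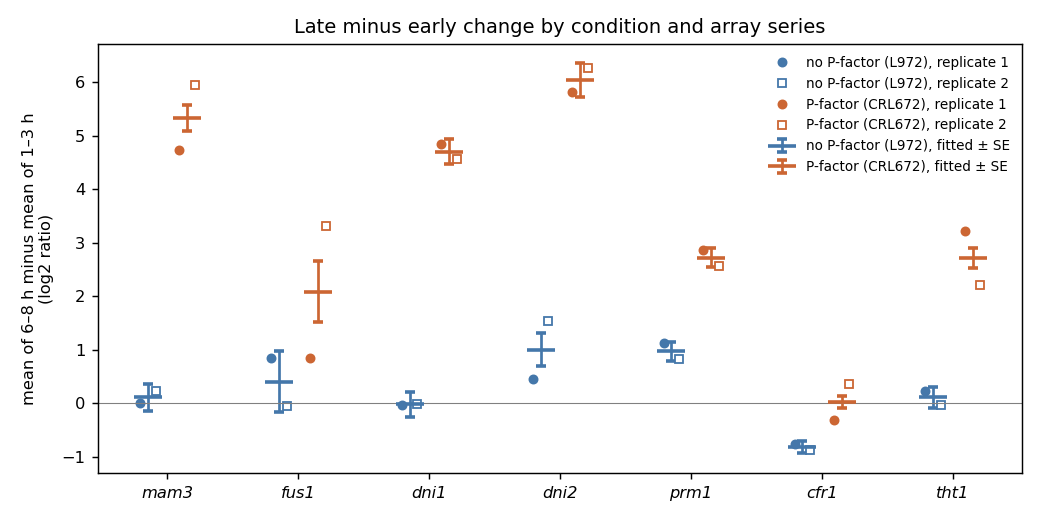
Change from 1 to 3 h to 6 to 8 h (log2 ratio, vertical axis) for each gene. Dashes with whiskers are the fitted change ± SE, and points are the 2 time courses of each condition, blue without P-factor and orange with it. Both orange points lie above both blue ones for mam3, dni1, dni2, prm1, cfr1 and tht1, while the points of fus1 interleave.

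Set against each other hour by hour, no difference between the conditions was called for any of the 7 genes from 1 to 4 h, where 0.0831%, 0.0208%, 0% and 0% of all genes were called higher with P-factor. At 5 h, 3 of them were higher with P-factor, where 0.748% of all genes were, namely mam3 by 4.94 ± 0.53, dni2 by 4.88 ± 0.66 and dni1 by 2.93 ± 0.51 (adjusted p = 6.44e-06, 0.000182 and 0.00299). At 6 h prm1, tht1 and cfr1 joined them, making 6 of 7 against 3.47% of all genes. With any 1 of the 4 series left out the count at 6 h was 3 or 4, and 3 without replicate 1 of the condition lacking P-factor: cfr1 lost its call under each omission (adjusted p = 0.127 to 0.199), prm1 under 3 of them (0.0531 to 0.113) and tht1 under 2 (0.0669 and 0.144). The call of dni1 at 5 h was lost without replicate 2 of that condition (2.56, adjusted p = 0.0516). At 7 h the count was 5 against 5.34%, since cfr1 missed the threshold (0.81 ± 0.27, adjusted p = 0.0693), and at 8 h it was 6 against 6.36%. The call of cfr1 at 8 h was lost with any 1 series left out (adjusted p = 0.0671 to 0.225) and when each series counted as 1 value (0.125), and that of prm1 at 7 h without replicate 2 lacking P-factor (0.0786). At 6 h cfr1 also lost its call with values as deposited, quantile normalization or series as single values (adjusted p = 0.0699, 0.0619 and 0.128). The largest difference at 8 h was that of dni2, at 5.68 ± 0.66. The gene fus1 was not called at any hour, and came closest at 6 h (2.61 ± 1.22, adjusted p = 0.277), where it was called without replicate 1 of the P-factor condition at 7 and 8 h (adjusted p = 0.0216) and when each series counted as 1 value (adjusted p = 0.01). At 4 h, before any call, the difference of dni2 was 2.09 ± 0.66 (95% interval 0.72 to 3.45) and that of mam3 1.43 ± 0.53 (0.33 to 2.53), neither called, and the time courses with P-factor disagreed there.

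**Figure D3:**
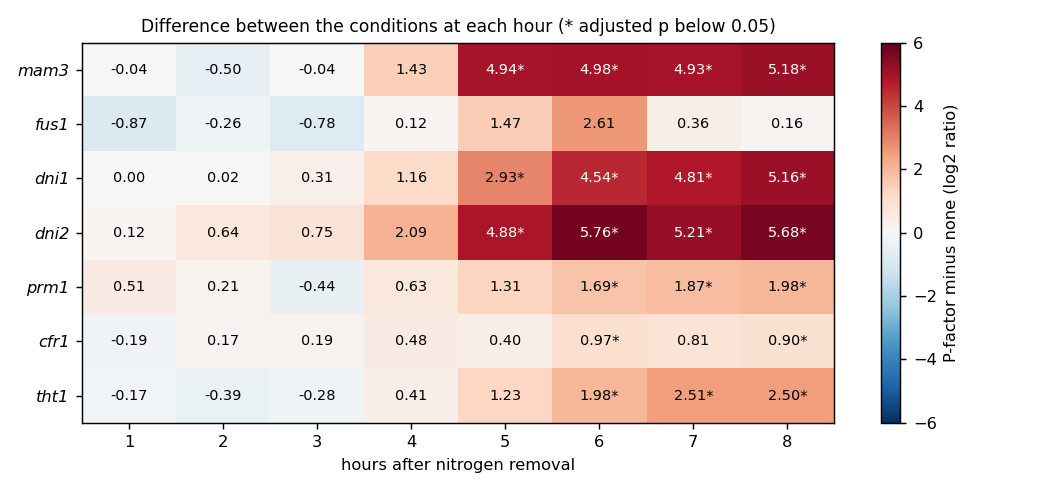
P-factor minus no P-factor (log2 ratio, colour and printed value) for each gene at each hour after nitrogen removal, with an asterisk where the adjusted p was below 0.05. Values for mam3, dni1 and dni2 exceed 4.5 from 6 h on, and the first asterisks stand at 5 h.

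Averaged over all 8 hours, 4 of the 7 genes were higher with P-factor than without, where 2.12% of all genes were: dni2 by 3.14 ± 0.43, mam3 by 2.61 ± 0.35, dni1 by 2.37 ± 0.33 and prm1 by 0.97 ± 0.26 (adjusted p = 0.000133, 0.000105, 0.000167 and 0.0408). The call of prm1 was lost without either replicate with P-factor (adjusted p = 0.196 and 0.122). It was also lost when each series counted as 1 value (adjusted p = 0.177). The gene tht1 differed by the same amount as prm1, 0.97 ± 0.27, and just missed the threshold (adjusted p = 0.0526). In some alternatives tht1 was called, as with values as deposited or arrays scaled (adjusted p = 0.0488 and 0.0309). The calls thus do not separate prm1 from tht1. The genes cfr1 and fus1 were not called, at 0.47 ± 0.18 and 0.35 ± 0.80. Against growth, all 7 were higher on average with P-factor (background 33.9%), and mam3, prm1 and cfr1 were higher without (background 33.7%). The smallest of these, cfr1 without P-factor at 0.28 ± 0.12 (adjusted p = 0.0492), lost its call in 10 of 14 alternative analyses. The larger value of fus1 without P-factor, 1.25 ± 0.57, was not called here but was in some alternatives, as given above.

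Against growth, hour by hour, mam3 was called higher with P-factor at 1 h and from 3 h on, dni1, dni2 and prm1 from 4 h and tht1 from 5 h, each up to 8 h. The gene fus1 was called at 5 and 6 h alone. At 1 to 8 h in turn, 26.4%, 25.8%, 24.4%, 28.7%, 26.2%, 28.2%, 26.9% and 29.9% of all genes were called higher than growth with P-factor. Without it the shares were 26.4%, 27.8%, 27.3%, 27.4%, 25.5%, 25.9%, 26% and 27.1%, and cfr1 was called at 1 to 4 h, mam3 at all hours but 7 h, and prm1 from 4 h. At its highest hour with P-factor, mam3 stood 103-fold above growth (6 h), dni2 78.2-fold (8 h), dni1 35.2-fold (7 h), fus1 14.6-fold (6 h), prm1 8.28-fold (7 h), tht1 5.4-fold (8 h) and cfr1 1.98-fold (4 h).

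The rise with P-factor was split at 4 and 5 h. From 1 to 3 h to 4 and 5 h, mam3 rose by 3.87 ± 0.28, dni2 by 3.26 ± 0.34, dni1 by 1.90 ± 0.26, fus1 by 1.76 ± 0.63, prm1 by 1.70 ± 0.21 and tht1 by 1.25 ± 0.21, so 6 of 7 were called where 20% of all genes were. The call of fus1 in this step was lost in 6 alternatives (adjusted p = 0.0563 to 0.129), and those of fus1 and tht1 without replicate 1 with P-factor (1.11 and 0.70, adjusted p = 0.0919 and 0.055). From there to 6 to 8 h, dni1 rose by a further 2.80 ± 0.26, dni2 by 2.78 ± 0.34, mam3 and tht1 by 1.46 each (± 0.28 and ± 0.21) and prm1 by 1.02 ± 0.21, which made 5 of 7 against 5.84% (3 without replicate 2 and 2 without the 4 h arrays). The order of the steps of dni1 differed between the time courses, whose means ran 0.26, 3.08 and 5.10 in replicate 1 and 0.27, 1.26 and 4.84 in replicate 2. Those of mam3 ran 1.16, 5.06 and 5.89, and 0.79, 4.63 and 6.73. The second step of fus1 (0.32 ± 0.63) was called without replicate 1 (2.22, adjusted p = 0.00539). The second steps of mam3 and prm1 were not called without replicate 2 (0.83 and 0.60, adjusted p = 0.153 and 0.158), nor that of mam3 with 5 h alone as the middle (0.08, adjusted p = 0.964), and with 5 h alone those of prm1 and tht1 were not called either (0.70 and 1.06, adjusted p = 0.314 and 0.0638).

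The 2 time courses with P-factor were also read apart. At 4 h, replicate 1 read 3.55 for dni2, 2.32 for dni1, 2.16 for fus1 and 0.79 for tht1. Replicate 2 read 0.38, 0.14, 0.52 and 0.05 for the same genes at 4 h, each below replicate 1. At 6 h the replicates read 6.31 and 5.94 for dni2, 4.88 and 4.53 for dni1 and 3.99 and 3.74 for fus1, closer than at 4 h. They read 2.46 and 1.45 for tht1, farther apart than at 4 h. The midpoint of the rise, halfway between the mean of 1 to 3 h and that of 6 to 8 h, came later in replicate 2 for each of the 5 genes for which both could be given, by 0.43 h for mam3, 0.68 h for dni2, 0.77 h for tht1, 0.85 h for dni1 and 1.18 h for prm1. Of all 265 genes that rose by at least 1 in both, these 5 among them, 58.1% were later in replicate 2, with a median shift of 0.18 h. Among 8 pheromone signalling genes 2 were later, with a median of -0.16 h. A later midpoint in replicate 2 was not particular to the members. The kinase gene shk2 was later by 0.59 h and the nuclear fusion gene tht2 by 0.9 h, while the dynein gene dhc1 was not later (-0.12 h). In replicate 2 the midpoints of mam3, fus1, dni1, dni2, prm1 and tht1 lay between 4.24 and 5.08 h and those of the 8 signalling genes between 2.99 and 4.10 h, ste11 at 3.46 h and the receptor gene mam2 at 3.75 h among them. In replicate 1 the 2 sets overlapped, at 3.82 to 4.26 h and 3.51 to 4.38 h. The midpoints were computed after the values had been seen and were not tested.

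**Figure D4:**
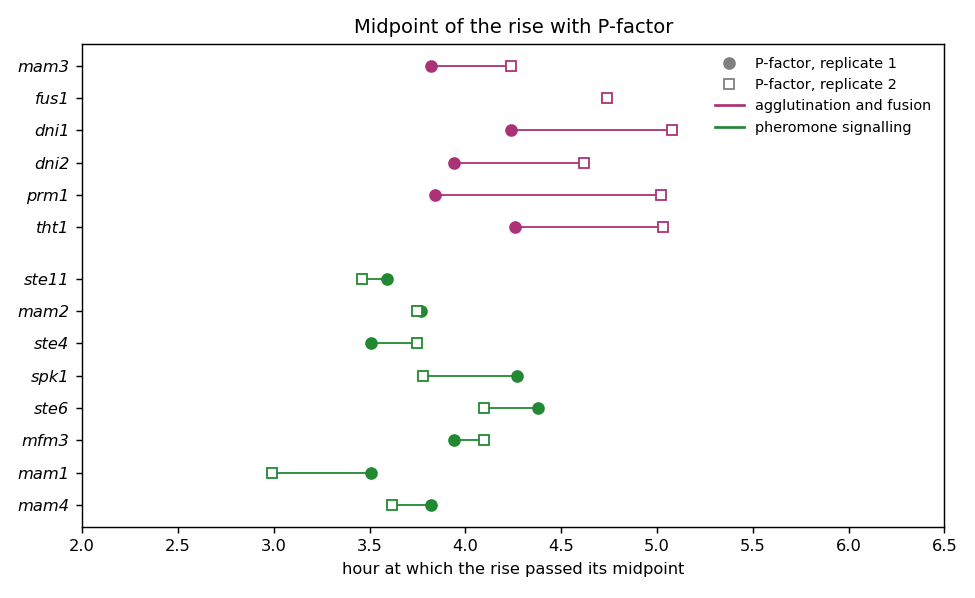
Hour at which the rise with P-factor passed its midpoint (horizontal axis), for agglutination and fusion genes (purple) and pheromone signalling genes (green) with a value in both time courses, and for fus1 in replicate 2 alone. Filled circles are replicate 1 and open squares replicate 2. The purple squares all lie right of their circles, and most green squares lie left of theirs or close to them.

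Other genes of mating were read beside them in the between-condition difference of this change (late minus early with P-factor minus the same without), which was called higher for 6 of the 7 members (background 15.6% higher and 10.2% lower) with a median of 2.60, where the median over all genes was 0.05. Of 15 pheromone signalling genes, 10 passed as higher and 1 as lower (median 1.03). The lower gene was sxa2, for the P-factor peptidase, at -0.53 ± 0.19. The regulator gene rgs1 had 2.58 ± 0.50, the MAP kinase gene spk1 1.86 ± 0.39, mam2 1.83 ± 0.46, mam4, for an enzyme of M-factor processing, 1.74 ± 0.19 and ste6, for an exchange factor of Ras, 1.41 ± 0.25. The M-factor genes mfm1 and mfm3, which rose strongly in both conditions, were not called (-0.77 ± 0.52 and 0.38 ± 0.60).

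For nuclear congression and fusion, 8 of 11 other genes had a larger change with P-factor and none a smaller one, with a median of 0.89. The largest were tht2 at 2.40 ± 0.27, the dynein heavy chain gene dhc1 at 1.69 ± 0.25, the dynactin gene ssm4 at 1.26 ± 0.33, the microtubule end gene mal3 at 1.04 ± 0.20 and bip1, for a chaperone of the endoplasmic reticulum, at 0.91 ± 0.21. Averaged over all hours, bip1 and mal3 stood below growth without P-factor (-1.58 ± 0.15 and -1.15 ± 0.14) and with it (-1.29 ± 0.15 and -0.60 ± 0.14). With P-factor, tht2, dhc1 and ssm4 stood above growth. Late minus early, mal3 fell without P-factor (-0.60 ± 0.14) and rose with it (0.45 ± 0.14). The spindle pole body gene sad1 was not called (-0.02 ± 0.22). The value of tht2 was close to that of tht1, and its change without P-factor was not called (0.20 ± 0.19).

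Of 17 genes of actin, polarity and wall enzymes, not all of them known for the fusion site, 6 passed as higher and 1 as lower (median 0.13). The p21-activated kinase gene shk2 exceeded every one of the 7 members, at 5.49 ± 0.36, and rose by 5.63 ± 0.25 with P-factor. It was followed by the scaffold gene scd2 at 1.13 ± 0.18 and the tropomyosin gene cdc8 at 0.87 ± 0.14. Next came the kinase gene shk1 at 0.83 ± 0.25, while the glucanase gene exg3 was lower at -1.39 ± 0.22. Late minus early, shk1 fell without P-factor (-0.46 ± 0.17) and was not called with it (0.37 ± 0.17). The gene cdc8 fell without P-factor and rose with it (-0.41 ± 0.10 and 0.45 ± 0.10), and scd2 rose in both conditions. The other 2 formin genes of the list were not called, cdc12, of the cytokinetic ring, at -0.20 ± 0.20 and for3, of actin cables, at -0.24 ± 0.15. The myosin V genes myo51 and myo52, which run on the actin at the fusion site, had 0.00 ± 0.18 and -0.01 ± 0.23. Of 6 genes of chitin synthase and its regulators, set beside cfr1, 2 were higher, chr4 (older name cfh3) at 0.84 ± 0.30 and cfh1 at 0.70 ± 0.23. Like cfr1, both fell without P-factor (-0.61 ± 0.22 and -0.63 ± 0.16) and were not called late minus early with it.

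**Figure D5:**
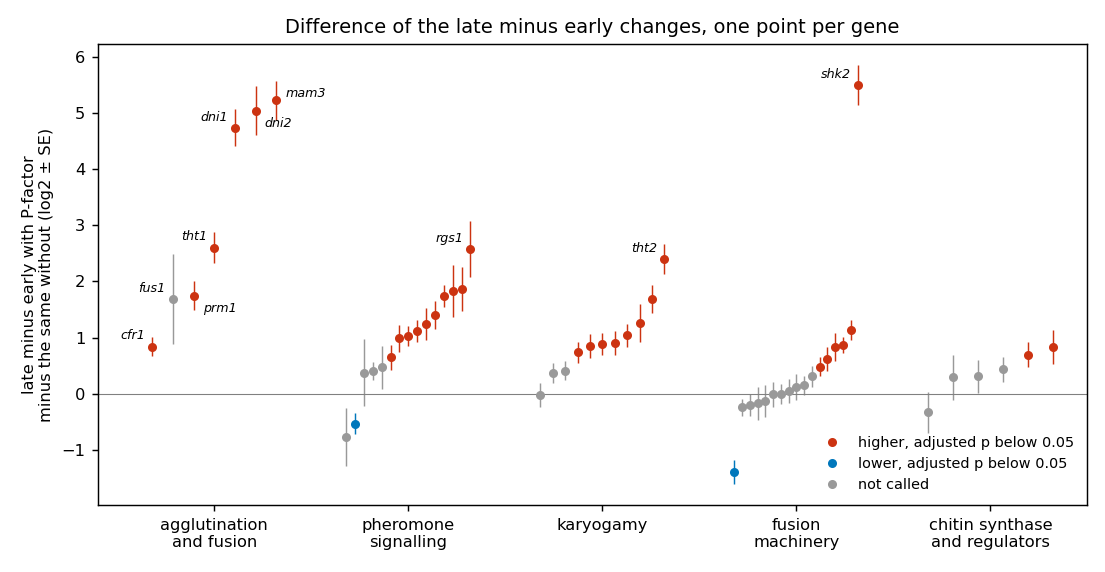
Late minus early change with P-factor minus that without (log2, vertical axis), for each tested gene of 5 lists. Points are fitted values ± SE, red where called higher, blue where called lower and grey where not called. The members mam3, dni1 and dni2 and the kinase gene shk2 lie above 4.5, and all other listed genes lie below 3.

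The genes whose profile over the arrays was most like that of a member were found by Pearson's correlation, as a description, since the points share time courses and strains. The kinase gene shk2 came first for dni1 (0.976), dni2 (0.975) and mam3 (0.963), over 32 arrays each. Behind it stood ubp11 and ppk33 for mam3, sym1 and the dynein anchor gene num1 for dni1, and the meiotic kinase gene mek1 and sym1 for dni2. The closest to tht1 were sym1 (0.958, 31 arrays), the inositol transporter gene itr2 (0.945) and cpp1 (0.929), and the closest to prm1 were SPAC11H11.03C (0.944), mug8 and rep1, a transcription activator of early meiosis. The gene cfr1 had other company: the tubulin genes nda3 (0.867) and nda2 (0.857) and the proteasome gene pre9 (0.854), which also fell without P-factor (-0.82 ± 0.10, -1.18 ± 0.13 and -0.82 ± 0.12) and were not called with it. For fus1 the highest correlation was 0.768, with mtx1, followed by met8 (0.701) and mal2 (0.695). To the mean profile of the 7 the nearest were shk2 (0.971), itr2, rec10, of the meiotic chromosome axis, sym1 and num1.

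The genes on either side of each member, 14 in all by the RefSeq gene table, were read in the difference of the changes. Of these neighbours 3 were higher, 3 lower and the others not called, where 15.6% of all genes were higher and 10.2% lower. Whether the neighbours differed from other genes was not tested. On one side of mam3, scm3, which loads the centromeric histone, had 2.39 ± 0.37, and on the other SPAP11E10.01 had -1.54 ± 0.21. Next to cfr1 lies bqt1, a gene of the telomere bouquet of meiosis. It rose by 3.02 ± 0.20 with P-factor, where cfr1 had 0.02 ± 0.12. The sources used here do not give the strand that the probes detect.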

How the data were processed

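Per the labels, polyA RNA of starved (Cy5) and growing (Cy3) cells was hybridised together. The deposited values, 1 per probe and array, were taken as log2 ratios of Cy5 over Cy3. Their direction follows from the labelled dyes. The log base, the background correction and the normalization are not given in the sources used here. Deposited values reach 9.779, which base 10 could not give on such arrays, and a natural logarithm would change every fold printed here. The labels name no dye swap, so ratios against growth keep any dye bias. The number of arrays limits the precision.

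Of 5188 probes, 4868 had 1 gene in the platform annotation, 22 several, and 298 were not listed. Names and neighbours were taken from the RefSeq gene table for ASM294v3. Arrays were centred on their medians (-0.154 to 0.091). Genes measured on at least 24 of 32 arrays were fitted with limma 3.58.1 in R 4.3.3: a mean for each of 16 groups, the 4 array series as a random block (consensus correlation 0.354) and moderated variances. Tests were two-sided, with Benjamini-Hochberg adjustment over the 4811 genes and a threshold of 0.05. Every ± is the model's standard error. The fit was also run on simulated data, and the outcome is neither reported nor relied on here. Labels state that experiments were repeated but number no replicates. Series were told apart by array number, so p-values rest on arrays of 2 time courses a condition. Series taken as single values were therefore tried, beside other scalings, filters, moderation and omissions.

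The genes and lists were chosen with earlier results of these data known. The changes of the 7 genes, dni2, mam3 and fus1 among them, and the counts over genes and lists are therefore no independent support. All 7 genes are named throughout. From each list up to 5 called and 3 uncalled genes, and the 3 nearest profiles per gene (5 for the mean), were named. The lower signalling gene sxa2 was named besides. Cell type genes and neighbours were looked up by list. Midpoints were added after the values had been seen. The genes mfm2, map2 and pkl1 were not analysed here.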

Additional observations from a re-analysis of the deposited data

Results flagged for a closer look

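The late minus early change differed between the conditions for 6 of the 7 genes by a test of the difference itself. It was larger with P-factor by 5.22 for mam3, 5.04 for dni2, 4.73 for dni1, 2.60 for tht1, 1.75 for prm1 and 0.84 for cfr1. For the first 5 both time courses with P-factor moved more than both without, and the call held with each series taken as 1 value (adjusted p = 0.00246, 0.00246, 0.000329, 0.0146 and 0.0153). For cfr1 the changes were -0.31 and 0.35 with P-factor and -0.76 and -0.88 without, and the call did not hold there (adjusted p = 0.132). With 2 arrays in a group, single arrays could not be tested as outliers.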

How the results depend on the processing

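Time courses with P-factor could not be paired with those without, because the labels number no replicates. Values of single genes were read under 16 alternatives, of which that without the 4 h arrays was chosen after seeing the data. Of 1620 such values, 1510 kept their side of the threshold, 78 lost a call, 32 gained one and no called value reversed. Uncalled values could change sign. The average of dni1 without P-factor was 0.14, and -0.01 without replicate 1 of that condition. The counts of members held within 1.5 times in the average and late minus early comparisons, where arrays of all 4 series were kept. Late minus early without P-factor, dni2 rose by 0.46 when replicate 2 of that condition was left out, against 1.00. There prm1 rose by 0.82 when replicate 1 was left out, against 0.97. Calls lost under these omissions are given above. No count was made without replicate 1 of that condition, since tht1 then had no estimate. Counts over all genes moved more. Without P-factor, 2034 genes differed late from early, 1024 to 2018 with a series left out and 1051 with the series as the unit. With P-factor the latter gave 1637 of 2576. The averaged difference between the conditions called 160 genes, 1457 with no block, 20 to 1195 with a series left out and 23 with the series as the unit. The difference of the changes called 1241, and 683, 562 to 967 and 175 under the same alternatives.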
